A study of Mus musculus with 21 samples.

Results

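The transcripts of 10 genes that carry inflammatory signals to the acute phase response were followed in mouse liver after SPC3372, an antimiR-122 oligonucleotide that blocks microRNA-122. They are the interleukin-6 receptor genes Il6ra and Il6st, the interleukin-1 receptor gene Il1r1 and its adaptor Myd88, the transcription factor genes Stat3, Cebpb and Cebpd, and the feedback genes Nfkbia, Nfkbiz and Socs3. Within the files the members were found by gene symbol, and the genes themselves were chosen with earlier results of these data known. The 10 genes were read by 28 of the 45101 probe sets. The probe set of highest mean level stood for a gene, which made the members 10 of 18193 genes in all. Of the 28 probe sets, 25 lay above the median log2 value of all probe sets, 4.79, and no member was lost to a filter.

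Female mice of the outbred NMRI stock were given SPC3372 at 25 mg per kg, or saline vehicle, on day 2. On day 3, day 9 or day 23 they were killed, 3 treated and 3 saline mice at each time, and total liver RNA was read on Affymetrix arrays. The labels reuse some mouse numbers between days, and groups of different days were taken as different animals. Days 3 and 9 were read in array set p0617 and the comparison of day 23 in p0621. All values are log2 expression after RMA (robust multi-array average). They came from whole liver, where fewer cells of a type and less RNA per cell cannot be told apart. The number of arrays limits the precision.

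Interleukin-6 binds its receptor, made from Il6ra, and the shared signalling chain gp130, made from Il6st. Kinases of the JAK family then activate STAT3, which switches on acute phase genes and also Socs3, an inhibitor that closes the receptor down again. Interleukin-1 acts through its receptor and the adaptor MYD88, which also serves most Toll-like receptors, and leads to NF-kB. NF-kB in turn raises its own inhibitor, IkB alpha, made from Nfkbia, and the nuclear cofactor made from Nfkbiz. The C/EBP factors made from Cebpb and Cebpd act with both branches at acute phase genes in hepatocytes.

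Promoter windows of 300 bases, from 250 before to 50 after a RefSeq start (GRCm38.p6), were found for 8 of the 10 genes, in 9 windows. None was found for Cebpd or for the feedback gene Nfkbiz, so these were not searched. The 9 windows were searched on both strands for letters that STAT factors, NF-kB and C/EBP factors are known to bind. The reason was that the feedback genes are textbook targets of these factors. The STAT palindrome TTCNNNGAA occurred in 2 of the 9 windows, those of Socs3 and Myd88, and in 8.3% of all 32851 windows. The kappa B consensus occurred in 2 windows, those of Nfkbia and Il1r1, and in 4.51% of all windows. The C/EBP palindrome (TT, a purine, C, a purine, a pyrimidine, AA) occurred in 0 of the 9 and in 3.77% of all. The matches in Socs3 and Nfkbia, the feedback gene of each branch, are shown 5′ to 3′ on the gene's strand, with the matched letters in capitals. The Socs3 stretch is chr11:117969501-117969530, minus strand, with the match at -154 to -146 from the start. That start is internal, as the stretch lies inside the annotated gene (117966079 to 117970336). The Il1r1 match also lies inside its annotated gene. The Nfkbia stretch is chr12:55492657-55492686, minus strand, with the match at -29 to -20. A match is a description of the letters and not a measured site.
Socs3: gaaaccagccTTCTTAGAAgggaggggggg
Nfkbia: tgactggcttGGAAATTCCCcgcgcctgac

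None of the 10 genes passed the test of SPC3372 against saline on any of the 3 days, while 5 of 22 acute phase products rose on day 3. On that day 479 of all 18193 genes rose. The test was limma's moderated test with 3 mice against 3, adjusted by Benjamini-Hochberg over 18193 genes with a threshold of 0.05. At day 3, 0 of 10 passed, beside 4.51% of all genes. At day 9, 0 of 10 passed, beside 2.81%, and at day 23, 0 of 10, beside 0.385%. With such shares, a count of 0 among 10 genes is near the background. At an unadjusted p under 0.05, 2 of the 10 were found at day 3 (18.3% of all genes), 1 at day 9 (16.8%) and 1 at day 23 (13.9%). The median difference of the 10 genes was -0.05, 0.20 and -0.13 at days 3, 9 and 23, beside 0.01, -0.02 and -0.02 over all genes. The change in effect between days was tested as well, and 0 of 10 passed from day 3 to day 9 (0.143% of all genes) and 0 of 10 from day 3 to day 23 (0.302%). At an unadjusted p under 0.05 these counts were 0 (11.6% of all genes) and 2 (10.3%).

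The number of mice sets what these comparisons could show. With its own error, a gene would have passed at day 3 with a change of at least 1.26-fold for Il6ra, 1.32-fold for Nfkbia, 1.53-fold for Stat3 and 2.24-fold for Socs3. At day 23, where fewer genes passed, the same sizes were 1.36-fold, 1.45-fold, 1.76-fold and 2.91-fold. Socs3 had the widest limits of the 10 genes and Il6ra the narrowest. These limits hold for the brightest probe set of each gene. The second Il6ra probe set, 1452416_at, had a close mean level, 5.76 against 5.85. Its SE at day 3 was 0.19 against 0.10 in the limma fit of every probe set. It would have passed there with a log2 change of at least 0.73, against 0.37 for the brightest set.

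**Figure D1:**
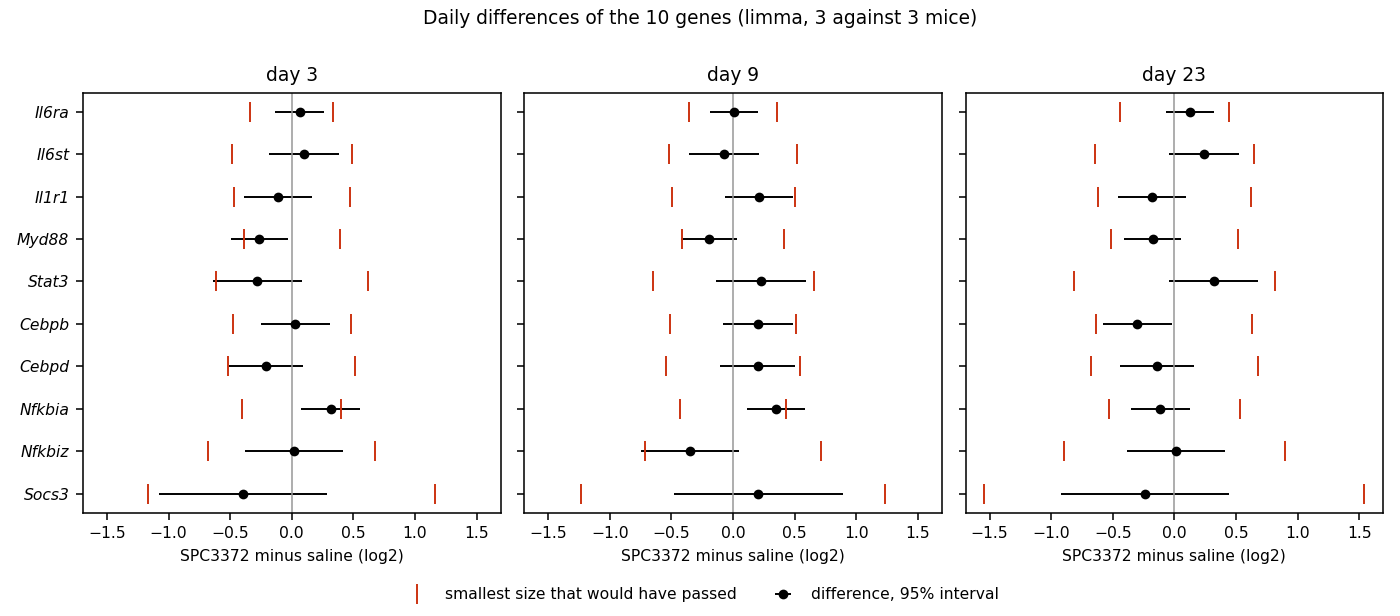
Daily difference of each gene, SPC3372 minus saline in log2 units on the x axis, as a point with its 95% interval from the limma fit (3 against 3 mice). Red ticks mark the smallest size that would have passed the adjusted test; every point lies inside its ticks, from -0.40 for Socs3 to 0.32 for Nfkbia at day 3, and the interval of Socs3 is the widest.

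Neither interleukin-6 receptor gene passed the test on any day. Il6ra, the ligand-binding chain, read 5.98, 5.82 and 5.95 after SPC3372 and 5.90, 5.75 and 5.91 after saline at day 3. These groups overlapped, with a difference of 0.07 (95% interval -0.13 to 0.26, adjusted p = 0.783). At day 9 the difference was 0.01 (95% interval -0.19 to 0.21) and at day 23 it was 0.13 (adjusted p = 0.604). At day 23 the treated mice lay at 5.74, 5.84 and 5.83, and the saline mice at 5.61, 5.74 and 5.69. These groups just failed to overlap, and 19.2% of all genes had groups without overlap on that day. The second Il6ra probe set, 1452416_at, differed by -0.07, 0.21 and 0.13 at days 3, 9 and 23. At day 23 its groups overlapped, at 5.85, 5.93 and 6.35 with the drug and 5.92, 6.22 and 5.59 with saline. On the p0617 arrays the same treated mice read 5.63, 5.74 and 5.76 in the brightest probe set. The lowest of these lay within the saline range.

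Il6st, the gp130 chain, read 10.15, 10.29 and 10.03 in SPC3372 livers of day 3, against 9.79, 10.12 and 10.26 in saline livers. The difference was 0.10 (95% interval -0.19 to 0.38, adjusted p = 0.771), and without saline replicate 1 it was -0.04. At day 9 it was -0.07 (adjusted p = 0.843), with overlapping groups. At day 23 the treated mice read 9.72, 9.90 and 10.18 and the saline mice 9.88, 9.65 and 9.54, a difference of 0.24 (adjusted p = 0.448). All 4 probe sets of Il6st had higher treated means at day 3, by 0.10 to 0.23. At day 9 it was 2 of 4, with differences of -0.07 to 0.23. At day 23 it was again all 4, by 0.08 to 0.46. The largest of the day 23 differences came from 1460295_s_at, which read 6.95, 6.89 and 6.97 with the drug and 6.51, 6.53 and 6.40 without. Its groups did not overlap, and it did not pass in the limma fit of every probe set (difference 0.46, SE 0.11, adjusted p = 0.0859).

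In the interleukin-1 branch, the receptor gene Il1r1 read 7.88, 7.75 and 7.49 in treated mice of day 3, and its saline mice read 7.80, 7.87 and 7.77. The difference was -0.11 (adjusted p = 0.726), followed by 0.21 at day 9 and -0.18 at day 23 (adjusted p = 0.455 and 0.592). The groups overlapped on all 3 days. Its second probe set lay at 2.71 on average, far under the median of all probe sets.

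Myd88, the adaptor gene, was read by a single probe set and had lower treated means on all 3 days without passing on any. At day 3 the treated values were 7.32, 7.59 and 7.47, and the saline values were 7.58, 7.83 and 7.76. Only treated replicate 2 reached the lowest saline mouse, so the groups overlapped by a narrow margin. The difference was -0.26 (SE 0.11, 95% interval -0.49 to -0.03, adjusted p = 0.200). At days 9 and 23 it was -0.20 and -0.18 (adjusted p = 0.383 and 0.510), again with overlapping groups.

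Stat3, the factor that interleukin-6 activates, spread widely among the saline mice of day 3. Those mice read 9.36, 9.87 and 10.22, and the treated mice 9.56, 9.38 and 9.66. The treated values fell inside the saline range, with a difference of -0.28 (95% interval -0.64 to 0.08, adjusted p = 0.420). Without saline replicate 1 it was -0.51 (limma adjusted p = 0.0808), and without saline replicate 3 it was -0.08. At day 9 the treated mice read 10.09, 10.05 and 10.08, and the saline mice 10.08, 9.67 and 9.79, a difference of 0.23 (adjusted p = 0.549). At day 23 the treated mice read 9.92, 10.04 and 10.30, and the saline mice 9.75, 9.96 and 9.59, a difference of 0.32 (adjusted p = 0.427). The groups overlapped on each day. The change in effect from day 3 was 0.51 to day 9 and 0.60 to day 23, and neither passed (adjusted p = 0.431 and 0.404). The other 3 Stat3 probe sets gave 0.06 to 0.16 at day 3, -0.18 to -0.02 at day 9 and -0.08 to 0.04 at day 23. With probe sets averaged in place of the brightest one, the difference was 0.01 at day 3, -0.03 at day 9 and 0.07 at day 23. The change in effect from day 3 to day 23 was then also 0.07. So the direction for Stat3 at days 3 and 9, and most of its size at day 23, rest on 1 probe set.

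Of the C/EBP genes, Cebpb had the larger difference at day 23. Its treated mice read 9.03, 8.92 and 9.06 there, and its saline mice 9.15, 9.40 and 9.37. The groups did not overlap, and Cebpb and Il6ra were the 2 of 10 genes without overlap at day 23 (19.2% of all genes). The difference was -0.30 (SE 0.13, 95% interval -0.58 to -0.02, adjusted p = 0.323), and the second Cebpb probe set gave -0.34. At days 3 and 9 the differences were 0.03 and 0.20, with overlapping groups. Without treated replicate 2 the day 3 value was -0.09, and without saline replicate 2 it was -0.03.

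Cebpd, which is known to be induced early in the acute phase, read 6.13, 6.25 and 5.88 in treated livers of day 3 and 6.002, 6.34 and 6.54 in saline livers. The saline mice reached higher, and the difference was -0.21 (95% interval -0.51 to 0.09, adjusted p = 0.483). It was 0.20 at day 9 and -0.14 at day 23. The second Cebpd probe set lay at 3.98 on average, below the median of all probe sets.

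**Figure D2:**
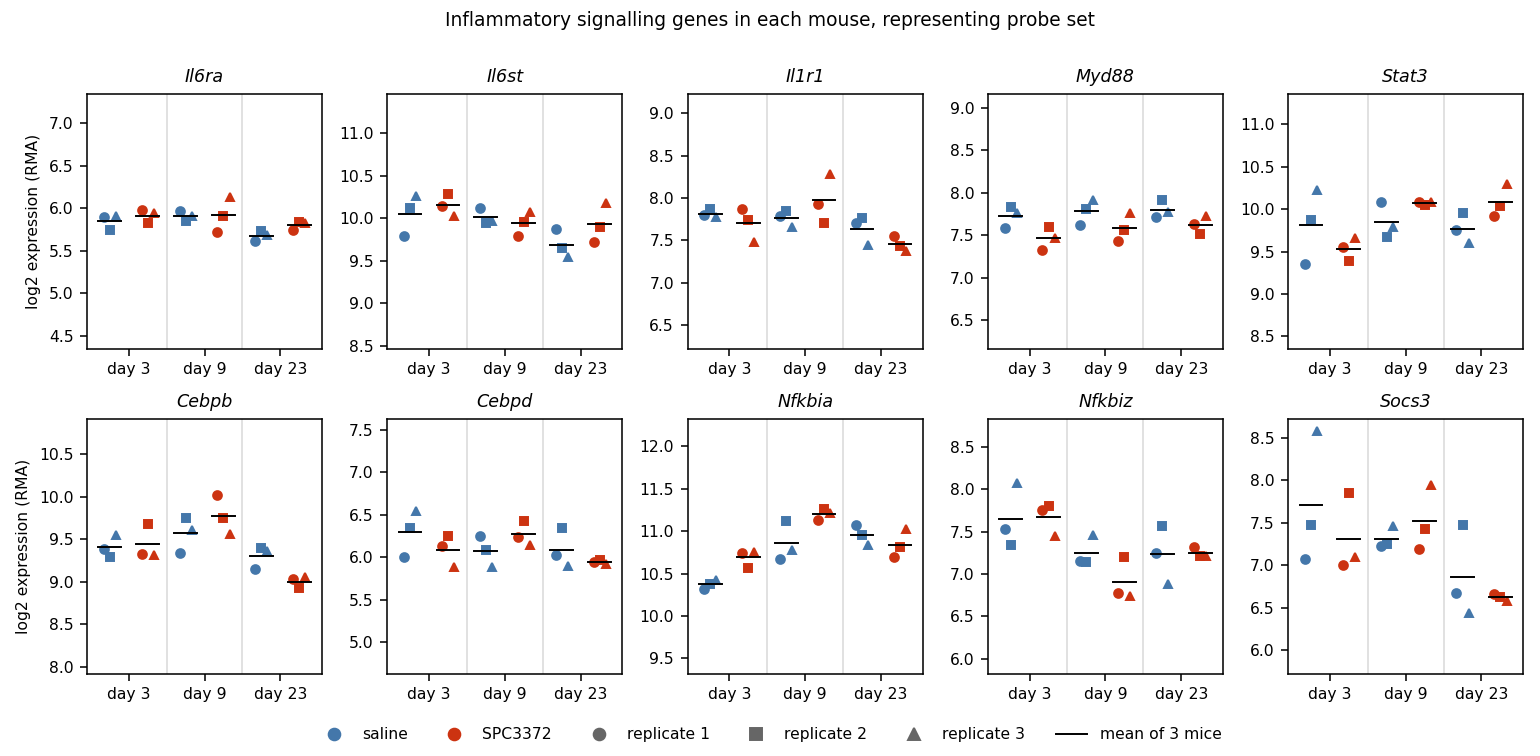
Log2 expression of the 10 genes in each of 18 mice (the brightest probe set of a gene, p0621 for day 23; every panel spans 3 log2 units). Circles, squares and triangles are replicates 1, 2 and 3, blue for saline and red for SPC3372, and bars are means of 3 mice; the groups of a day overlap except for Nfkbia at days 3 and 9 and Il6ra and Cebpb at day 23, and saline replicate 3 of day 3 stands highest in Socs3 at 8.57.

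Nfkbia, the NF-kB-induced inhibitor gene, had the lowest adjusted p of the 10 genes at days 3 and 9. At day 3 the treated mice read 10.74, 10.57 and 10.76, and the saline mice 10.32, 10.38 and 10.42. Every treated mouse was above every saline mouse. The means were 10.69 ± 0.10 and 10.37 ± 0.05 (SD, n = 3 each), a difference of 0.32 (SE 0.11, 95% interval 0.08 to 0.55, limma adjusted p = 0.129). Nfkbia was the 1 gene of 10 without overlap at day 3, beside 21.5% of all genes.

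At day 9 the treated mice read 11.13, 11.27 and 11.22, and the saline mice 10.67, 11.12 and 10.78. Again no values overlapped (1 of 10 genes, 21.6% of all genes), by a narrow margin over saline replicate 2. The difference was 0.35 (SE 0.11, 95% interval 0.11 to 0.58, limma adjusted p = 0.113). It passed without saline replicate 2, at 0.48 (limma adjusted p = 0.0304). It also passed when only genes above the 75th percentile of level were tested (limma adjusted p = 0.0474, with 0.0304 to 0.339 over its alternatives). At day 23 the treated mice read 10.69, 10.82 and 11.02 and the saline mice 11.08, 10.95 and 10.84. The treated mean was the lower one there, with a difference of -0.11 (adjusted p = 0.715) and overlapping groups. The change in effect between day 3 and day 23 was -0.43 and did not pass (limma adjusted p = 0.343).

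The 5 Nfkbia probe sets did not give the same picture at day 3. The brightest, 1420088_at, and 1449731_s_at and 1420089_at differed by 0.32, 0.27 and 0.28. The other two, 1438157_s_at and 1448306_at, differed by -0.05 and -0.04. At day 9 all 5 had higher treated means, by 0.18 to 0.35. At day 23 the set 1448306_at stood at 7.36, 7.49 and 7.39 with SPC3372 and at 7.95, 7.63 and 7.72 with saline, without overlap. Its difference of -0.36 did not pass over all probe sets (limma adjusted p = 0.174).

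Saline mice were compared between days 3 and 9, and Nfkbia was the 1 gene of 10 that passed there. Its saline means rose from 10.37 ± 0.05 at day 3 to 10.86 ± 0.24 at day 9 (SD, n = 3 each). The difference was 0.48 (SE 0.11, limma adjusted p = 0.0151), beside 5.88% of all genes called in that comparison. All 5 probe sets had higher means at day 9, by 0.40 to 0.56, and 3 of the 5 passed over every probe set. The 5 probe sets read 1 gene in the same mice, and the share of all probe sets that passed was not kept. The call of the gene ended without saline replicate 1 of day 3 (limma adjusted p = 0.0632). It also ended without saline replicate 2 of day 9 (limma adjusted p = 0.0796, with 0.00571 to 0.0796 over its alternatives). These saline mice are also the controls of the daily comparisons.

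**Figure D3:**
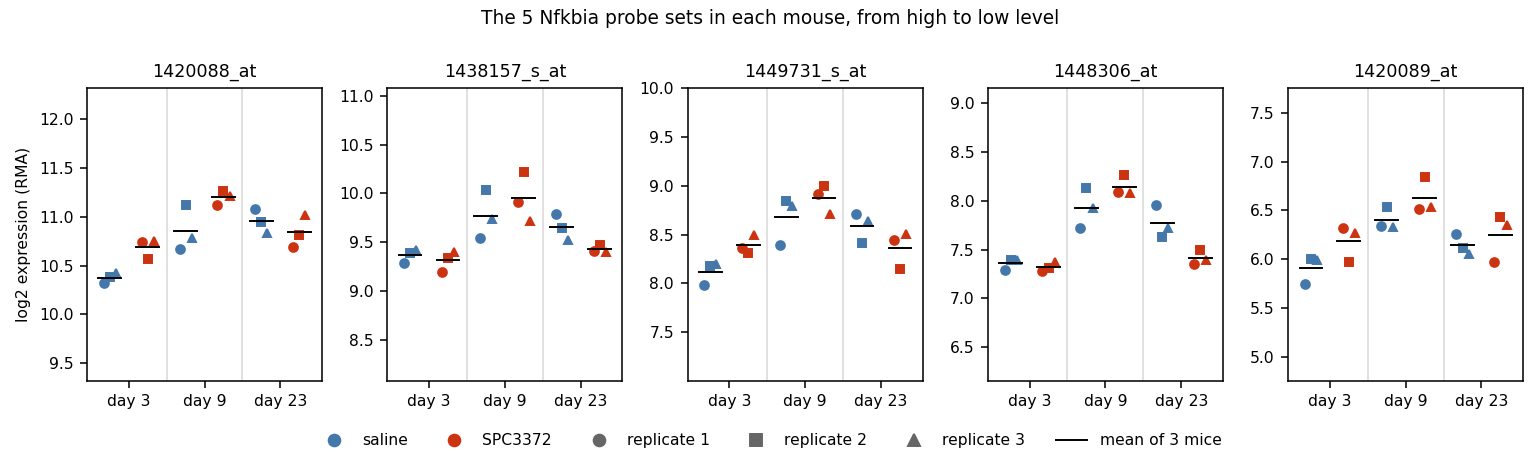
The 5 Nfkbia probe sets in each of 18 mice, log2 expression on the y axis and group by day on the x axis (blue saline, red SPC3372, bars are means of 3 mice). In all 5 the saline mean of day 9 lies above that of day 3, while the drug difference at day 3 is 0.27 to 0.32 in 3 probe sets and -0.05 and -0.04 in the other two.

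Nfkbiz, the nuclear cofactor gene, read 7.75, 7.80 and 7.44 in treated mice of day 3, while saline mice lay at 7.53, 7.34 and 8.07. The difference was 0.02 (adjusted p = 0.977), within overlapping groups. It turned sign without treated replicate 1 or 2 (-0.03 and -0.05) and without saline replicate 1 or 2 (-0.04 and -0.14). At day 9 the treated mice read 6.78, 7.20 and 6.74 and the saline mice 7.16, 7.14 and 7.46, a difference of -0.35 (95% interval -0.75 to 0.05, adjusted p = 0.368). At day 23 it was 0.01. A dimmer Nfkbiz probe set, 1457404_at, had lower treated means on each day, with differences of -0.49, -0.39 and -0.61. It did not pass over every probe set by limma (adjusted p = 0.193, 0.325 and 0.167 in the order of days).

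Socs3, the feedback inhibitor gene of the interleukin-6 receptor, varied more between mice than any other member at day 3. The saline mice read 7.08, 7.47 and 8.57, and the treated mice 6.997, 7.84 and 7.09. The groups overlapped, and saline replicate 3 lay above every treated mouse. The means were 7.31 ± 0.46 with SPC3372 and 7.71 ± 0.78 with saline (SD, n = 3 each), a difference of -0.40 (95% interval -1.08 to 0.29, limma adjusted p = 0.581). Without saline replicate 3 the difference was 0.04. The upper end of the interval was a 1.22-fold rise. At day 9 the difference was 0.21 (adjusted p = 0.810), and -0.01 without treated replicate 3.

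At day 23 Socs3 stood at 6.66, 6.62 and 6.57 in treated mice, and in saline mice at 6.67, 7.47 and 6.43. The treated values lay within the saline range. The difference of -0.24 (adjusted p = 0.806) became 0.07 without saline replicate 2. All 3 Socs3 probe sets had lower treated means at day 3, with differences of -0.46 to -0.35, and at day 23, with -0.47 to -0.24. The brightest set and 1456212_x_at carry the suffix that Affymetrix gives to sets whose probes may also match other transcripts.

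Some mice held the highest value of their group in most members. Saline replicate 3 of day 3 did so in 8 of 10 genes, beside 32.4% of all genes, and saline replicate 2 of day 23 in 8 of 10, beside 35.4%. Treated replicate 2 of day 3 did so in 6 of 10, beside 32.9%. These counts are a description, with no test. In the saline mice of day 3 the acute phase gene Saa2 stood at 8.15, 8.40 and 9.68, again highest in replicate 3. Lcn2, another acute phase gene, stood at 9.80, 9.19 and 9.70 and was highest in replicate 1. The mean level of 14 Kupffer cell and macrophage markers in these mice was 8.16, 7.76 and 8.79, and its part in the values of replicate 3 was not tested. The treated mice of that day had Saa2 at 13.57, 13.51 and 13.65, and each had less Socs3 than this saline mouse.

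The other parts of the pathways were described from lists of ligands, receptors, kinases and adaptors, transcription factors, inhibitors and acute phase products. Cd14 is also in the macrophage list, and Lbp is in both the receptor and the acute phase list. Of 13 ligand genes, 0 rose and 0 fell by limma on any day, with median differences of 0.04, 0.02 and -0.05. Il6, Il1b and Tnf, named here for their role after their values were seen, differed by -0.02, 0.07 and 0.26 at day 3 and by -0.13, 0.50 and 0.15 at day 9. At day 23 Il1b read 6.78, 6.24 and 5.66 in treated mice, all below the saline values of 7.08, 7.28 and 7.27. That difference of -0.98 was the largest of the ligands and did not pass (limma adjusted p = 0.0797), while Il6 and Tnf differed by 0.06 and -0.04. Il6 lay at 2.86 on average over 18 arrays, under the median of all probe sets, a range in which RMA shrinks differences. Of 12 measured receptors besides the members, 0 passed on any day. All 12 had higher treated means at day 3, by 0.07 to 0.38, with a median of 0.19, beside 9608 of 18193 genes. At day 9 it was 9 of 12, and at day 23 it was 7 of 12. Of 14 measured transcription factors, 0 passed on any day.

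Among 22 measured kinases and adaptors, 3 rose and 0 fell at day 3, and 3 rose and 0 fell at day 9. Of all 18193 genes, 479 rose and 342 fell at day 3, and 348 rose and 163 fell at day 9. Tab3, an adaptor that links TRAF6 to the kinase TAK1, read 7.02, 7.35 and 7.27 in treated and 6.63, 6.79 and 6.72 in saline livers of day 3. The groups did not overlap, and Tab3 rose 1.42-fold at day 3 (log2 0.50, SE 0.11, limma adjusted p = 0.0129) and 1.55-fold at day 9. Its relative Tab2 rose 1.26-fold and the kinase gene Map3k8 1.41-fold at day 3, the latter at a mean level of 4.46, below the median of all probe sets. At day 9, Irak2, a relay of the interleukin-1 receptor, read 7.36, 7.21 and 7.55 after SPC3372, and 6.10, 7.07 and 5.91 after saline. It rose 2.02-fold (log2 1.01, SE 0.20, limma adjusted p = 0.0137). Jak1, a kinase bound to gp130, rose 1.37-fold at day 9. At day 23, 0 of 22 passed, and the change in effect from day 3 to day 9 or day 23 did not pass for any of these 5 genes.

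Of 14 inhibitor genes, 1 rose at day 3 and 1 at day 9, beside 479 and 348 of all 18193 genes. In both cases it was Cyld, a deubiquitinase that restrains NF-kB signalling, at 1.27-fold and 1.34-fold. At day 23, 0 of 14 passed.

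At day 3, 479 of all 18193 genes rose and 342 fell. Of 22 acute phase products, 5 rose and 0 fell on that day. They were Saa1, Saa2 and Saa3, which encode serum amyloid A proteins, Lcn2 (lipocalin 2) and Orm2, an orosomucoid. Orm2 read 10.91, 10.72 and 10.50 with the drug and 8.33, 8.49 and 9.57 with saline. It rose 3.76-fold (log2 1.91, SE 0.32, limma adjusted p = 0.00216). At day 9, 0 rose and Orm1 differed by -0.46 (limma adjusted p = 0.0180), the 1 gene of the list that fell. Over all genes, 348 rose and 163 fell on that day. At day 23, 0 of 22 passed. The median difference over the 22 genes was 0.07 at day 3, far below its 5 largest members.

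**Figure D4:**
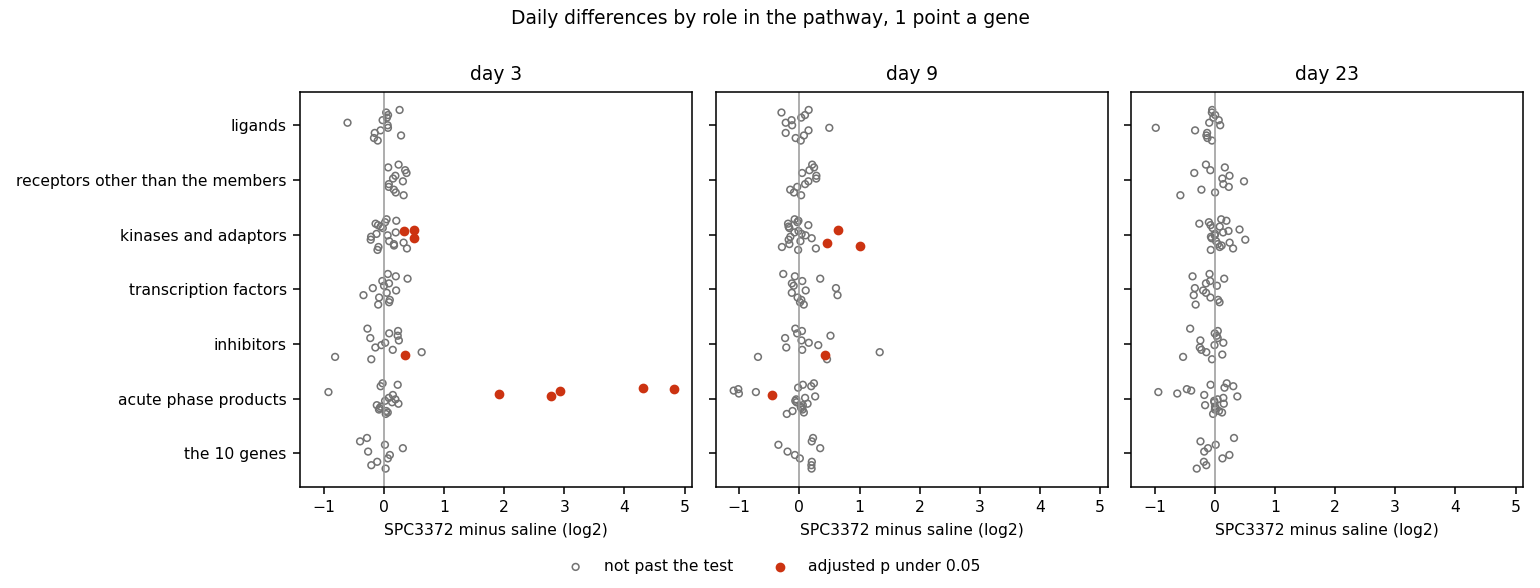
Difference between SPC3372 and saline liver (log2, x axis) at each day for single genes grouped by role, 1 point a gene; filled red points passed the adjusted limma test. The 5 acute phase products that rose stand between 1.91 and 4.83 at day 3, while the 10 genes lie between -0.40 and 0.32.

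Some cell markers and the beta-actin control differed between treated and saline mice, not always on the same days. The labelled tissue was checked on 7 measured hepatocyte markers, which had a mean level between 13.59 and 13.86 in every mouse. Of 14 Kupffer cell and macrophage markers, 7 rose at day 3 and 0 at days 9 and 23. Their mean level at day 3 was 8.79 to 9.39 over treated and 7.76 to 8.79 over saline mice. Of 10 lymphocyte markers, 3 rose at day 3, with a mean level of 5.23 to 5.50 against 4.89 to 5.06. They were Gzma, Gzmb and Ncr1, and none of the T and B cell markers of the list passed. Of 9 neutrophil markers 0 rose, with a mean level of 5.08 to 5.31 against 4.96 to 5.12. Of 8 endothelial markers 1 rose at day 3 and 1 at day 9, and of 8 stellate cell markers 2 rose at day 9. No marker of these lists fell on any day by limma. On the beta-actin control, the 3' probe set exceeded the 5' one by 1.01 to 1.05 (log2) in treated and 0.76 to 0.85 in saline mice of day 3, and by 1.12 to 1.16 against 0.86 to 0.98 at day 9. At day 23 the excess was 1.04 to 1.33 in treated and 1.11 to 1.18 in saline mice. The part of the marker and control differences in the results was not tested. In the 3 treated mice of day 23 read in both array sets, the 2 readings of a member differed by at most 0.45 in size (Nfkbiz in mouse 38), with a median of 0.10.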

How the data were processed

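Liver RNA of 18 mice was read on 21 Affymetrix arrays. The authors deposited log2 values per probe set, which the submitters' processing notes say came from RMA. Its version, and which arrays shared a normalization, were not given in the sources used here. Array medians lay between 4.75 and 4.82. Of 45101 probe sets, 64 were controls, and the platform annotation gave 34945 of the rest 1 symbol, 932 several and 9160 none. A gene took its probe set of highest mean over 18 arrays (p0621 for the treated mice of day 23).

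Group means of the 6 groups were fitted with limma (12 residual, 4.85 prior degrees of freedom), two-sided, with Benjamini-Hochberg adjustment over 18193 genes. Intervals are 95% intervals of the fit. The smallest change that would have passed is a gene's SE times the t value of the largest p called. The members and lists were chosen with earlier results of these data known. All 10 members are named, and listed genes only if they passed, except where stated. The planned search for genes with a profile like that of a member called in a daily comparison was not made, as no daily comparison called one. The fit was tested on simulated data. Promoter windows came from RefSeq. Replicate numbers did not pair mice: deviations of same-numbered mice correlated at -0.137 to 0.0763, and 0 of 9 correlations were over 0.1. Alternatives were another normalization, level filter, probe set rule, prior, block, array choice or fold minimum, and leaving out each array. The work used limma 3.58.1 in R 4.3.3 with data.table (version 1.17.8), and pandas 2.3.3 and matplotlib 3.10.9 in Python 3.11.15.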

Additional observations from a re-analysis of the deposited data

Results flagged for a closer look

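The drug effect differed between days, by limma's test of the difference itself, for 4 of the 5 acute phase products that rose at day 3. From day 3 to day 9 it changed by -5.85 for Saa2, -4.33 for Saa3, -4.02 for Saa1 and -2.92 for Orm2 on the log2 scale (limma adjusted p = 0.000173, 0.0132, 0.00481 and 0.0178). From day 3 to day 23 it changed by -5.30, -4.15, -3.32 and -2.54 in the same order (limma adjusted p = 0.000473, 0.00874, 0.00955 and 0.0198). For Lcn2 the effect changed by -2.51 from day 3 to day 9 and by -2.40 to day 23. Neither change passed (limma adjusted p = 0.171 and 0.191). The 5 products were picked by their rise at day 3, and that day 3 effect is subtracted in both changes. A negative change was therefore favoured in advance. Over all genes, the change in effect passed for 0.143% from day 3 to day 9 and for 0.302% from day 3 to day 23. No change in effect of the 10 signalling genes passed this test.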

How the results depend on the processing

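The count of called members was 0 at days 3 and 23 under every alternative run. It was out of 9 members with genes above the median level and out of 4 above the 75th percentile. It was out of 28 probe sets when every probe set was tested, and otherwise out of 10 members. At day 9 it was 1 of 4 (Nfkbia) above the 75th percentile of level, and 0 to 1 over leaving out 1 array. For saline day 9 against day 3 the count of 1 became 0 for changes of at least 1.5-fold and 0 to 1 over leaving out 1 array. In that comparison 3 of 28 probe sets were called when every probe set was tested. The shares of all genes or probe sets called in these alternative fits were not kept, so the counts stand without a background. With the replicate number as a block the counts were 0 at each day, 0 for both changes in effect and 1 between saline groups, and no call changed. Of 499 recomputed daily differences 25 turned sign, in 12 of 30 gene and day pairs. Many of the 499 could not turn, so this share understates how often a sign turned where it could. A level filter, another prior, the block, a fold minimum and a test of every probe set leave a difference as it was. The same holds for a fit of only the arrays of a day or of all 21 arrays. Quantile normalization turned Il6ra at day 9 to -0.0180 and Nfkbiz at day 23 to -0.00490, and median centring turned Nfkbiz at day 3 to -0.000255. Averaging probe sets turned Il6ra (-0.00246), Nfkbiz (-0.201) and Stat3 (0.00627) at day 3, Il6st (0.0751) and Stat3 (-0.0330) at day 9, Nfkbiz at day 23 (-0.196), and the change of Stat3 from day 3 to day 9 (-0.0393). The p0617 arrays of the treated mice turned Nfkbiz at day 23 to -0.225. Leaving out 1 array moved Stat3 at day 3 between -0.511 and -0.0779, and gave ranges across 0 at day 3 for Cebpb (-0.0917 to 0.0992), Il6st (-0.0352 to 0.203), Nfkbiz (-0.136 to 0.230) and Socs3 (-0.712 to 0.0373). At day 9 it did so for Il6ra (-0.0974 to 0.108), Il6st (-0.142 to 0.00166) and Socs3 (-0.00581 to 0.372), and at day 23 for Nfkbiz (-0.161 to 0.183) and Socs3 (-0.452 to 0.0685). The cause of these turns was not tested. Values below the median level are compressed by RMA.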
